A study of Mus musculus with 6 samples.

Results

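Cadherins and protocadherins are cell adhesion proteins whose extracellular parts are built from calcium-binding cadherin repeats. The members described here are all rows of the deposited gene count table whose symbol is Cdh followed by a number alone, or begins with Pcdh, which gave 93 of 54838 genes. They comprise 18 classical cadherins, 5 other numbered cadherins, 58 protocadherins of the alpha, beta and gamma clusters and 12 protocadherins outside the clusters. Of the 93, 70 passed the filter on low counts and were tested, among 18775 genes in all. RNA of sciatic nerve was sequenced at postnatal day 3 from mice of strain C57 Bl, in 3 wild-type (WT) libraries and 3 libraries of genotype CnpCre Actl6afl/fl, called conditional knockout (cKO) here. In cKO mice the Cre recombinase is driven by Cnp, a gene of myelinating glia, and both copies of Actl6a, an actin-related subunit of BAF chromatin remodelling complexes, carry loxP sites. The labels name the control genotype only as WT, so whether these mice carried floxed alleles or Cre is not given, and the same holds for pooling of animals. Cells of the nerve outside the Cre lineage keep Actl6a.

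Classical cadherins bind their own kind on the neighbouring cell and hold actin through catenins bound to the cytoplasmic tail. Type I members such as E-cadherin and N-cadherin form strong junctions, and type II members such as cadherin-11 and VE-cadherin are found more in mesenchyme, vessels and the nervous system. In peripheral nerve, E-cadherin joins adjacent membranes of the same Schwann cell at its uncompacted myelin, and N-cadherin is a protein of Schwann cell precursors and of their contacts with axons. Clustered protocadherins are made from arrays of variable exons, each with its own promoter, which in the alpha and gamma clusters are spliced to shared constant exons. They are best known for cell surface identity of neurons. The delta-protocadherins outside the clusters bind weakly and act partly through regulators of actin such as the WAVE complex.

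Total counts ran from 31404107 to 36760296 per library. Actl6a itself read 48.6, 53.3 and 46.2 CPM (counts scaled to library size with TMM factors) in WT and 42.4, 47.6 and 41.5 CPM in cKO libraries, a log2 fold change of -0.17 that was not called (adjusted p = 0.243), and -0.24 (adjusted p = 0.0487) without cKO replicate 2, so this gene checks the genotype labels only weakly. Replicate 2 of the cKO group stood apart: 13 skeletal muscle markers summed to 67224 CPM there and to between 3612 and 5316 CPM in the other 5 libraries. Erythroid markers summed to 2725 to 3940 CPM in WT against 6745 to 21868 CPM in cKO, the highest value being that of cKO replicate 1. Of 9 Schwann lineage markers that are not members, 6 fell and 1 rose, and their sum was 33900 to 38129 CPM in WT against 4206 to 8127 CPM in cKO. In whole tissue, fewer cells of a type and less RNA per cell cannot be told apart.

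Of the 70 members tested, 3 rose and 9 fell in cKO nerves at an adjusted p below 0.05 (edgeR quasi-likelihood test over all genes), which is 17.1% of them against 18.8% of all genes tested. Over all genes 8.55% rose and 10.3% fell. At an unadjusted p below 0.05, 17.2% of all genes were higher and 17.3% lower, and DESeq2 called 2254 of 18775 genes higher and 2353 (12.5%) lower. The members were therefore called about as often as other genes, and what follows is which members moved. Their median log2 fold change was -0.22, against 0.04 over all genes. Without cKO replicate 2, 7 members rose and 16 fell, where 17.8% of 19256 genes rose and 17.6% fell. The 12 calls fell into separate classes: all 3 called classical cadherins and all 5 called clustered protocadherins fell, whereas 3 of the 4 called non-clustered protocadherins rose.

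The classical type I cadherin genes Cdh1 and Cdh3, which lie side by side, fell. Cdh1, which encodes E-cadherin (ENSMUSG00000000303, GRCm38 chromosome 8, 106603351 to 106670246), read 82.0, 77.3 and 88.5 CPM in WT libraries against 45.1, 24.7 and 45.6 CPM in cKO libraries. The highest cKO library lay well below the lowest WT library, and cKO replicates 1 and 3 were nearly equal. The fall was 2.15-fold, from 82.6 ± 5.6 to 38.5 ± 11.9 CPM (SD, n = 3 each), with a log2 fold change of -1.10 (95% interval -1.67 to -0.54, adjusted p = 0.0235). Without cKO replicate 2 it was -0.87 with an adjusted p of 4.42e-06, and the call was lost without WT replicate 1, 2 or 3 (adjusted p 0.0838, 0.0745 and 0.0889). Exonic levels per kilobase set Cdh1 at 18.1 CPM per kb in WT, the highest of the type I members, and at 8.41 CPM per kb in cKO.

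Cdh3, which encodes P-cadherin (ENSMUSG00000061048, chromosome 8, 106510891 to 106557297), ends 46053 bases before Cdh1 begins on the same strand. It read 6.08, 5.22 and 4.79 CPM in WT against 1.94, 0.718 and 1.71 CPM in cKO libraries. Again no cKO library reached the lowest WT value. The fall was 3.64-fold, with a log2 fold change of -1.87 (95% interval -2.69 to -1.04, adjusted p = 0.0133). The call held without each cKO library, with -1.55 without cKO replicate 2, and was lost without WT replicate 1, 2 or 3 (adjusted p 0.0656, 0.058 and 0.0507).

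The other type I members were not called. Cdh2, which encodes N-cadherin (ENSMUSG00000024304, chromosome 18, 16588877 to 16809246), read 29.8, 26.4 and 22.6 CPM in WT against 15.9, 14.6 and 22.7 CPM in cKO. Replicate 3 of cKO lay within the WT range, and the log2 fold change was -0.56 (95% interval -1.02 to -0.11, adjusted p = 0.0868). It was called without cKO replicate 3 (-0.78) and with DESeq2 (adjusted p = 0.0402). Cdh4, R-cadherin, read 5.88 ± 0.624 CPM in WT against 6.25 ± 1.24 CPM in cKO (SD, n = 3 each), and its interval ran from -0.35 to 0.53 on the log2 scale. Cdh15, M-cadherin of muscle precursor cells, read 4.87, 4.38 and 4.27 CPM in WT against 3.43, 56.9 and 5.34 CPM in cKO. A single library, cKO replicate 2, carried its difference: the log2 fold change was 2.27 (adjusted p = 0.236) with that library and -0.04 (adjusted p = 0.902) without it.

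**Figure D1:**
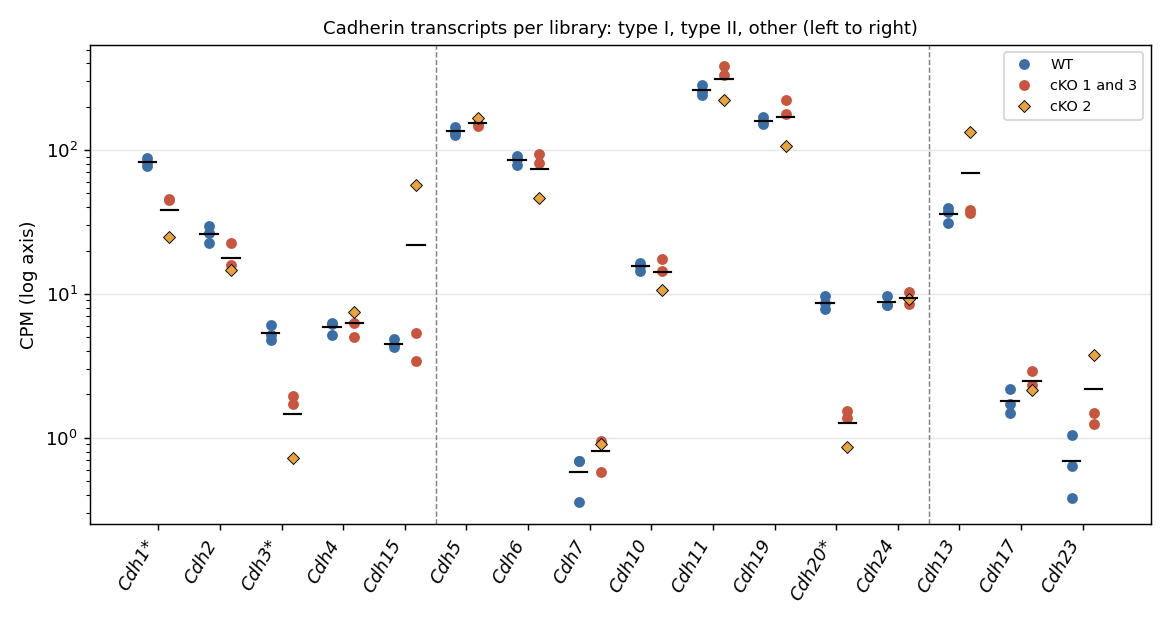
TMM-scaled CPM (log axis) of the 16 tested numbered cadherins in each library, with a horizontal line at each group mean; blue points are WT, red points cKO replicates 1 and 3, and orange diamonds cKO replicate 2, and an asterisk marks a called gene. Cdh1, Cdh3 and Cdh20 sit lower in all 3 cKO libraries, while Cdh15 and Cdh13 are high in cKO replicate 2 alone.

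Among type II cadherins, Cdh20 fell furthest of all 70 members. Cdh20 (ENSMUSG00000050840, chromosome 1, 104768529 to 104995481) encodes a cadherin known from neural crest and its derivatives. It read 9.60, 8.67 and 7.80 CPM in WT against 1.37, 0.861 and 1.54 CPM in cKO libraries. Every cKO library was several-fold below every WT library. The fall was 6.86-fold, from 8.69 ± 0.899 to 1.26 ± 0.354 CPM (SD, n = 3 each), with a log2 fold change of -2.78 (95% interval -3.34 to -2.21, adjusted p = 0.00104). The call held in all 6 fits with a library removed, with log2 fold changes from -2.95 to -2.57, and with DESeq2.

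The abundant type II cadherins were not called on all 6 libraries. Cdh19, whose gene lies on the same chromosome (110888326 to 110977584) and is a marker of the Schwann lineage, had the highest level per kilobase of the members in WT, at 37.5 CPM per kb, followed by Cdh5 at 32.1 and Cdh11 at 29.3 CPM per kb. It read 153, 169.8 and 158.2 CPM in WT against 178, 106.6 and 221.2 CPM in cKO. The cKO libraries lay on both sides of the WT range. Its log2 fold change was 0.07 (95% interval -0.53 to 0.67, adjusted p = 0.86), and 0.31 (adjusted p = 0.0195) without cKO replicate 2, where it was called higher. The other Schwann lineage markers given above had summed levels in every cKO library far below WT.

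Cdh11, which encodes OB-cadherin of mesenchymal cells, read 256.6, 282.7 and 242.04 CPM in WT against 330.8, 222.1 and 381.7 CPM in cKO. Replicate 2 was the lowest of all 6 libraries and the other cKO libraries the highest. The log2 fold change was 0.26 (adjusted p = 0.381), and 0.45 (adjusted p = 0.00181) without cKO replicate 2. Fibroblast markers summed to 18676 to 19360 CPM in WT, to 21859 and 21475 CPM in cKO replicates 1 and 3 and to 17632 CPM in cKO replicate 2. Their sum too was lowest in cKO replicate 2, but single markers differed. Col1a1, Col1a2 and Pdgfra were lowest there, Dcn, Lum, Clec3b and Dpp4 were not, and Dpt was highest there (409.7 CPM). The part of fibroblasts in the values of Cdh11 was not tested. Cdh5, which encodes VE-cadherin of endothelial junctions, read 143.6, 133.03 and 127.8 CPM in WT against 147.5, 167.8 and 151.2 CPM in cKO. All cKO libraries were above all WT libraries, yet the log2 fold change of 0.21 was not called (95% interval -0.01 to 0.42, adjusted p = 0.166). The sum of 8 other endothelial markers was 493.5 to 520.8 CPM in WT against 557.5 to 633.6 CPM in cKO, highest in cKO replicate 2 as for Cdh5. Here too single markers differed. Pecam1, Kdr, Tek and Esam were highest in that library, Tie1, Emcn and Egfl7 were not, and Cldn5 was lowest there (26.5 CPM). Tek alone was called (0.80), and Tie1 was lower in every cKO library (-0.17). The part of endothelial cells in the value of Cdh5 was not tested.

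Cdh6, a cadherin of neural crest and early Schwann cells, read 90.7, 87.2 and 79.2 CPM in WT against 93.6, 46.2 and 81.1 CPM in cKO. Only cKO replicate 2 was low, and the log2 fold change of -0.22 (adjusted p = 0.563) became 0.03 without it. Cdh10 had -0.13 and 0.04 in the same pair of fits. Cdh24 (0.09, 95% interval -0.22 to 0.39) and Cdh7 (0.48, 95% interval -0.36 to 1.31) were not called, and Cdh7 stayed below 1 CPM in every library. Over the class, 3 of 13 tested classical cadherins fell and 0 rose. At an unadjusted p below 0.05, 4 were lower and 0 higher, and DESeq2 called 4 lower and 0 higher. The class median was 0.07. Without cKO replicate 2, edgeR called 2 higher, Cdh11 and Cdh19, and 3 lower, where 17.8% of all genes rose and 17.6% fell. The 5 classical members that were not tested, Cdh8, Cdh9, Cdh12, Cdh18 and Cdh22, are mostly neuronal cadherins and had 0 to 15 counts per library.

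Of the numbered cadherins outside the classical families, 3 of 5 were tested and 0 were called by edgeR. At an unadjusted p below 0.05, 1 was higher and 0 lower, and DESeq2 called 1. That gene was Cdh23, a component of hair cell tip links, which read 1.05, 0.634 and 0.383 CPM in WT against 1.25, 3.77 and 1.49 CPM in cKO. All cKO libraries were above WT, with replicate 2 the highest, and the log2 fold change of 1.64 (adjusted p = 0.0841) was 0.99 (adjusted p = 0.0495) without replicate 2. Cdh13, the GPI-anchored T-cadherin, which lacks a cytoplasmic tail, read 39.4, 31.04 and 37.2 CPM in WT against 36.6, 133 and 38.3 CPM in cKO. As for Cdh15, the excess was in cKO replicate 2 alone: the log2 fold change was 0.95 (adjusted p = 0.296) with it and 0.06 (adjusted p = 0.69) without it. Cdh16, a kidney cadherin below the filter, had 4 to 10 counts in 5 libraries and 81 in cKO replicate 2. The excess of these genes ran with that of the muscle markers in the same library, and the part of muscle tissue in it was not tested. Cdh17, of intestinal epithelium, had 0.46 (adjusted p = 0.199).

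**Figure D2:**
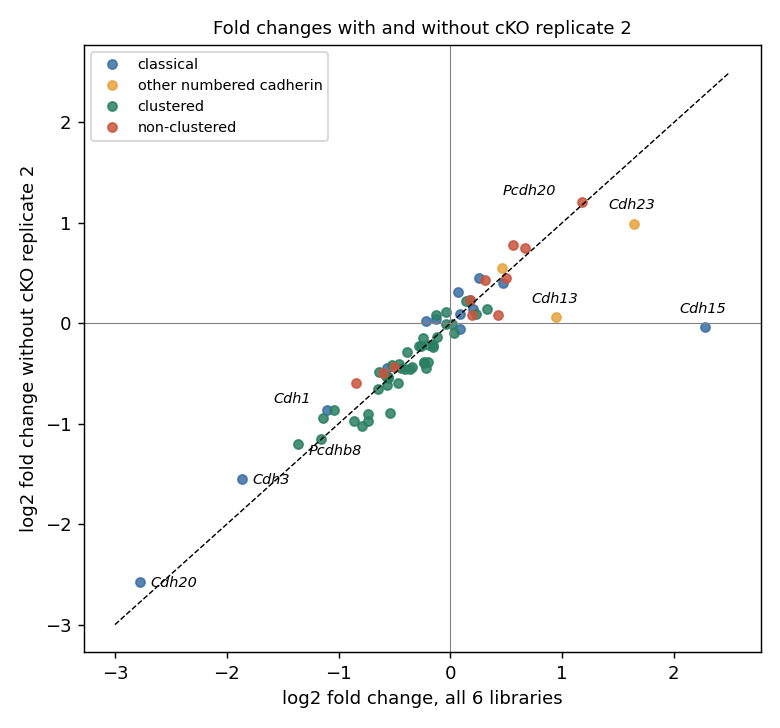
Log2 fold change (cKO against WT) of each of the 70 tested members in the fit of all 6 libraries (x axis) and without cKO replicate 2 (y axis), coloured by class; the dashed line marks equal values. Cdh15 falls from 2.27 to -0.04 and Cdh13 from 0.95 to 0.06. Pcdh20 stays near the line, and Cdh20 (-2.78 to -2.57) and Cdh3 (-1.87 to -1.55) lie a little above it.

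Non-clustered protocadherins were called in both directions. Among the 11 that could be tested 3 rose and 1 fell, a share of 27.3% higher and 9.09% lower beside 8.55% and 10.3% of all genes. At an unadjusted p below 0.05, 4 were higher and 3 lower, and DESeq2 called 3 higher and 3 lower. Of 4 delta-1 members, 3 (all but Pcdh1) had negative values with no overlap between the groups' libraries, and all 5 delta-2 members had positive values, of which 2 did not overlap. Over all genes tested, 42.7% did not overlap between groups, and 21.7% did so with cKO lower.

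Pcdh20 (ENSMUSG00000050505, chromosome 14, 88464743 to 88471396), a protocadherin outside the delta-1 and delta-2 groups, rose most among the called members. It read 19.04, 25.5 and 21.7 CPM in WT against 55.6, 47.8 and 46.3 CPM in cKO libraries. The lowest cKO library was clearly above the highest WT library, and replicate 2 lay between the other cKO libraries. The rise was 2.26-fold, from 22.1 ± 3.23 to 49.9 ± 4.97 CPM (SD, n = 3 each), with a log2 fold change of 1.18 (95% interval 0.86 to 1.49, adjusted p = 0.00239). The call held in all 6 fits with a library removed, with values from 1.07 to 1.27.

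The delta-2 members Pcdh19 and Pcdh18 rose by less. Pcdh19, whose human counterpart is known from an X-linked epilepsy (ENSMUSG00000051323, chromosome X, 133582860 to 133688987), read 25.3, 28.8 and 24.5 CPM in WT against 44.03, 36.4 and 44.3 CPM in cKO. No libraries overlapped, and the log2 fold change was 0.67 (95% interval 0.39 to 0.94, adjusted p = 0.0105). The call was lost without WT replicate 1 or 3 (adjusted p 0.0622 and 0.063). Pcdh18 (ENSMUSG00000037892, chromosome 3, 49743296 to 49757325) read 31.9, 31.1 and 31 CPM in WT against 43.1, 46.7 and 42.6 CPM in cKO. Spread within each group was small beside the difference, a log2 fold change of 0.49 (95% interval 0.30 to 0.68, adjusted p = 0.00813). Its call was lost without WT replicate 2 or 3 (adjusted p 0.0556 and 0.0574).

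Pcdh10, or OL-protocadherin, read 16.6, 15.9 and 15.7 CPM in WT against 25.9, 15.7 and 29.4 CPM in cKO. Replicate 2 sat at the WT level, so the log2 fold change of 0.56 (adjusted p = 0.127) rose to 0.78 (adjusted p = 4.02e-05) without it. The remaining delta-2 members were not called: Pcdh8 had 0.31 (95% interval -0.18 to 0.80) and Pcdh17 had 0.19 (95% interval -0.14 to 0.53).

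Pcdh7 was the only non-clustered protocadherin to fall in the fit of all libraries. It is a delta-1 member (ENSMUSG00000029108, chromosome 5, 57717967 to 58133230) and read 87.1, 97.03 and 90.3 CPM in WT against 66.8, 57.3 and 68.8 CPM in cKO. All cKO libraries were below WT. The fall was 1.42-fold, with a log2 fold change of -0.51 (95% interval -0.74 to -0.28, adjusted p = 0.0148). The call was lost without WT replicate 1, 2 or 3 (adjusted p 0.0536, 0.0757 and 0.0661). Of its exonic bases, 21.1% overlap another gene of the table, 4932441J04Rik, where unstranded reads cannot be assigned.

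Pcdh9, the second delta-1 member by level per kilobase, read 55.5, 54.9 and 47.6 CPM in WT against 31.8, 18.3 and 37.9 CPM in cKO. The groups did not overlap, but the cKO libraries spread over a wide range and the log2 fold change of -0.84 missed the threshold (95% interval -1.46 to -0.23, adjusted p = 0.0669). Without cKO replicate 2 it was -0.60 and called (adjusted p = 0.000514), and DESeq2 called it on all libraries (adjusted p = 0.00759). Pcdh11x, on the X chromosome, read 6.47, 6.31 and 5.04 CPM in WT against 3.68, 3.30 and 4.74 CPM in cKO. Its log2 fold change of -0.60 had an adjusted p of 0.0739, and -0.50 with an adjusted p of 0.0435 without cKO replicate 2. Pcdh1 had 0.17 (95% interval -0.17 to 0.52, adjusted p = 0.428). Pcdh12, an endothelial protocadherin, read 16.3 CPM in cKO replicate 2 and 7.69 to 9.09 CPM in the other 5 libraries, and was not called (0.42, adjusted p = 0.269). Pcdh15, of hair cell tip links, had 1 to 17 counts per library and was not tested.

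**Figure D3:**
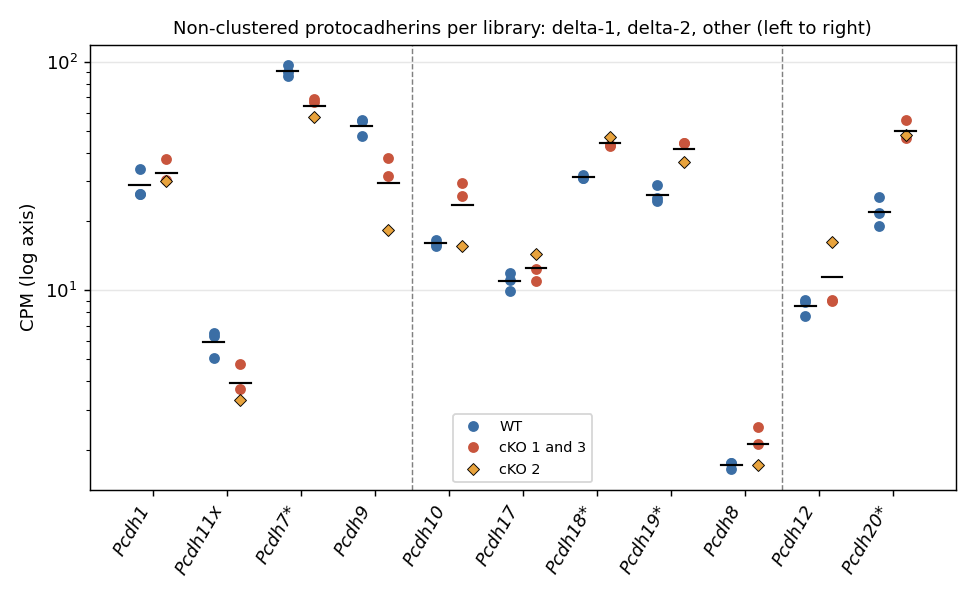
TMM-scaled CPM (log axis) of the 11 tested non-clustered protocadherins in each library, with a line at each group mean; blue is WT, red cKO replicates 1 and 3, the orange diamond cKO replicate 2, and an asterisk marks a called gene. Pcdh7, Pcdh9 and Pcdh11x lie lower in all cKO libraries and Pcdh18, Pcdh19 and Pcdh20 higher.

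Sequence just upstream of the RefSeq transcript start is shown for the called members that have an entry in the RefSeq promoter table (GRCm38.p6), to set the promoters of falling and rising members side by side. Of the 93 members 22 had an entry in that table, and 5 of the 12 called members are shown, each over 250 bases and 5′ to 3′ on the gene's strand. Capitals mark a match, on either strand, to any of 4 short motifs: CAGGTG (the E-box bound by SNAI and ZEB factors), ACAAAG (a SOX core), GGAATG (a TEAD core) and GTGGGCG (an EGR core). Cdh20 (chr1:104768270-104768519, plus strand) and Pcdh7 (chr5:57717831-57718080, plus strand) fell, and Pcdh18 (chr3:49757317-49757566, minus strand), Pcdh19 (chrX:133688994-133689243, minus strand) and Pcdh20 (chr14:88471397-88471646, minus strand) rose.
Cdh20: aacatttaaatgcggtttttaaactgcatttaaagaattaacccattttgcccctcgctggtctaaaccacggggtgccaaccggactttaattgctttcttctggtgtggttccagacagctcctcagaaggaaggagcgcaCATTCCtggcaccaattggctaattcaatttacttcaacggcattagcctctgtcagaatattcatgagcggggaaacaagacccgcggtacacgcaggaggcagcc
Pcdh7: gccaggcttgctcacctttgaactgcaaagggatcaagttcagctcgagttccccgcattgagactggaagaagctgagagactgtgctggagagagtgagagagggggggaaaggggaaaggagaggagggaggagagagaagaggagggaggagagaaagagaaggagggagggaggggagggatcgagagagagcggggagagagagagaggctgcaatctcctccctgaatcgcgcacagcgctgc
Pcdh18: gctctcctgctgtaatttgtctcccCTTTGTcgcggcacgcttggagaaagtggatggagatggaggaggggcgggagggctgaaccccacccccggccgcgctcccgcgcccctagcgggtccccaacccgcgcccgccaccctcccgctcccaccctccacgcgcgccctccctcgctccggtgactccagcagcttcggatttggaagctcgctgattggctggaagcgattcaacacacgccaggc
Pcdh19: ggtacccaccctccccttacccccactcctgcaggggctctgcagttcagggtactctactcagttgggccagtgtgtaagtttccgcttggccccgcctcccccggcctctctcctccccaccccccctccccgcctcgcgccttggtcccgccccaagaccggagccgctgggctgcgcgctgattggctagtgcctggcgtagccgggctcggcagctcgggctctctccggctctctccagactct
Pcdh20: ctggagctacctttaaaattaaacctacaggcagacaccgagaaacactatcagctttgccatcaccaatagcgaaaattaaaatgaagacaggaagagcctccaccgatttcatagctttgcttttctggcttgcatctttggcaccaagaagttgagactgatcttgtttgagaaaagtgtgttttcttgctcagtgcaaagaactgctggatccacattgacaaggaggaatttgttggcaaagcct
The RefSeq start is not always that of the counted Ensembl gene: 114 bases of the Pcdh7 window and 9 of the Pcdh18 window lie inside the gene as counted, and 0 of the others. Among these windows 1 held a match to the TEAD core (Cdh20, in reverse complement, beginning 107 bases before the start) and 1 a match to the SOX core (Pcdh18, in reverse complement, beginning 225 bases before the start), while 0 held the E-box or the EGR core. Of 32851 windows of the same length in the table, 12.6% held the TEAD core, 16.5% the SOX core, 17.2% the E-box and 7.02% the EGR core. No motif overlapped another in the windows shown. GC content differed among them, from 42.4% for Pcdh20 and 47.6% for Cdh20 to 68.0% for Pcdh18 and 69.2% for Pcdh19.

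Clustered protocadherins lie in 3 arrays on chromosome 18, alpha then beta then gamma. Of 58 genes, 43 were tested, of which 5 fell and 0 rose. At an unadjusted p below 0.05, edgeR found 16 lower and 0 higher, and DESeq2 called 5 lower and 0 higher, against 17.3% of all genes lower at that unadjusted p and 12.5% called lower by DESeq2. The share of calls was 11.6% by either tool, near the 10.3% (edgeR) and 12.5% (DESeq2) of all genes called lower, although 37 of 43 had a negative log2 fold change, against 45.7% of all genes. The class median was -0.36. In 21 of the 43, no cKO library overlapped the WT libraries and all were lower, and in 0 were all higher. Of all genes tested, 42.7% did not overlap in either direction, and 21.7% did so with cKO lower. Without cKO replicate 2, 10 clustered genes fell and 0 rose, where 17.6% of all genes fell and 17.8% rose.

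The alpha cluster was nearly silent in the counts, which leave out reads in the exons shared between its genes. Its 14 genes together had 53 to 97 counts per library in WT and 35 to 65 in cKO, and Pcdhac2, a C-type gene, held most of them. Pcdhac2 read 2.59, 2.13 and 1.29 CPM in WT against 1.46, 0.969 and 1.40 CPM in cKO. The groups overlapped and the log2 fold change of -0.64 was not called (adjusted p = 0.196). The other 13 alpha genes had 0 to 8 counts in any library, the 8 being of Pcdha5, and were not tested. Symbols and identifiers did not pair singly here, since 2 identifiers carry the symbol Pcdha11.

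The beta cluster held the largest sum of counted CPM, a ranking that was not made per kilobase. Reads in exons shared between genes were not counted, and far more of the alpha and gamma genes is shared than of most beta genes. The 22 beta genes added up to 98.3, 93.3 and 88.6 CPM in WT against 78.1, 72.1 and 72.1 CPM in cKO. All cKO sums were below all WT sums, at 0.794 of the WT mean. Of 21 tested, 4 fell and 18 had a negative value. The 4 were Pcdhb4, Pcdhb5, Pcdhb6 and Pcdhb8, which with Pcdhb7 are neighbours in the array. These 5 genes, a stretch picked out after the values were seen, summed to 21.5, 19.6 and 17.9 CPM in WT against 11.9, 9.33 and 11.3 CPM in cKO, or 0.553 of WT. The other 17 beta genes summed to 73.7 ± 3.03 CPM in WT against 63.3 ± 2.75 CPM in cKO (SD, n = 3 each), or 0.858 of WT.

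Pcdhb8 (ENSMUSG00000045876, chromosome 18, 37355121 to 37358604) read 3.88, 3.46 and 2.98 CPM in WT against 1.22, 1.005 and 1.77 CPM in cKO, from 28 to 129 counts per library. It had the largest fall of the clustered genes, 2.57-fold (log2 fold change -1.36, 95% interval -1.97 to -0.76, adjusted p = 0.0135). The call was lost without WT replicate 1 or 2 (adjusted p 0.0665 and 0.0612). Pcdhb4 (ENSMUSG00000045689, chromosome 18, 37307455 to 37311172) read 3.91, 3.11 and 3.53 CPM in WT against 1.37, 1.54 and 1.80 CPM in cKO. Its spread was small in both groups, and the log2 fold change of -1.16 (95% interval -1.62 to -0.70, adjusted p = 0.00889) stayed called with each library removed in turn, narrowly so without WT replicate 1 (adjusted p = 0.04997).

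Pcdhb6 (ENSMUSG00000051678) read 3.73, 3.00 and 2.82 CPM in WT against 1.73, 1.005 and 1.57 CPM in cKO, without overlap. The log2 fold change was -1.14 (adjusted p = 0.0242), and the call was lost on removing any of the WT libraries or cKO replicate 3 (adjusted p 0.0627 to 0.1). Pcdhb5 (ENSMUSG00000063687) read 4.51, 4.58 and 4.30 CPM in WT against 3.43, 2.80 and 2.77 CPM in cKO, again without overlap. Its fall was smaller (-0.57, adjusted p = 0.0486), and with a library removed it was called only without cKO replicate 1 or cKO replicate 2, the other removals giving an adjusted p from 0.128 to 0.159. Pcdhb7, between Pcdhb6 and Pcdhb8, had -0.52 and was not called (95% interval -0.97 to -0.07, adjusted p = 0.105). Of the 50-base words of these 5 genes, 3.35% to 8.57% also occur in transcripts of another gene, so part of their reads may be lost to the mapping quality limit.

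The most abundant beta genes were not called on all 6 libraries. Pcdhb22 read 13, 13.5 and 13.5 CPM in WT against 11.8, 12.02 and 11.3 CPM in cKO. The groups did not overlap, yet the log2 fold change was only -0.19 (95% interval -0.42 to 0.04, adjusted p = 0.216). Pcdhb17 had -0.12 (adjusted p = 0.463). Pcdhb19 had -0.47 (adjusted p = 0.0879), and -0.59 without cKO replicate 2, where it was called (adjusted p = 0.00626). These 3 are the highest in the beta cluster by mean CPM.

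The gamma genes are given by type. The A-type genes (12) summed to 29.7, 24.4 and 21.8 CPM in WT against 17.1, 19.02 and 17.1 CPM in cKO, without overlap and at 0.701 of the WT mean. The B-type genes (7) summed to 17.4, 14.5 and 12.3 CPM in WT against 9.72, 13.2 and 11.7 CPM in cKO, with cKO replicate 2 inside the WT range. The 3 C-type genes summed to 16.3, 13.3 and 12.4 CPM in WT against 13.3, 19 and 16.4 CPM in cKO, and these ranges overlapped. All 11 tested A-type genes had a negative log2 fold change, with a median of -0.56, against -0.24 for the 7 B-type and 0.23 for the 3 C-type genes. Whether the types differ was not tested.

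Pcdhga9 (ENSMUSG00000102440, chromosome 18, 37736936 to 37841870) was the 1 gamma gene of 21 that was called (4.76%, against 18.8% of all genes). It read 1.74, 1.33 and 1.37 CPM in WT against 0.82, 0.933 and 0.686 CPM in cKO, from 24 to 58 counts per library. The groups did not overlap, and the log2 fold change was -0.86 (95% interval -1.42 to -0.31, adjusted p = 0.0458). It was called in 1 of 6 fits with a library removed, the fit without cKO replicate 2 (-0.97, adjusted p = 0.017), and not with DESeq2 (adjusted p = 0.0545). In the other 5 fits the adjusted p ran from 0.0865 to 0.156. Pcdhga8 had a larger value, -1.04, with an adjusted p of 0.0547, and was called without cKO replicate 3. Without cKO replicate 2, Pcdhga2 (-1.02), Pcdhga6 (-0.97), Pcdhgb1 (-0.90) and Pcdhga3 (-0.61) were called as well, Pcdhga3 also with DESeq2.

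Pcdhgc3, the C-type gene known to be expressed outside neurons, was the most abundant gamma gene. It read 13.7, 11.2 and 10.2 CPM in WT against 11.1, 16.2 and 13.8 CPM in cKO. The groups overlapped, with a log2 fold change of 0.23 (95% interval -0.20 to 0.65, adjusted p = 0.396). Among the other 2 highest gamma genes, Pcdhgb6 had -0.23 (adjusted p = 0.574) and Pcdhga3 -0.56 (adjusted p = 0.0641). Between 31.5% and 73.6% of the exonic bases of the tested gamma genes are shared with another gene, mostly the constant exons, where reads cannot be given to 1 gene, so their counts come from the bases that are not shared.

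**Figure D4:**
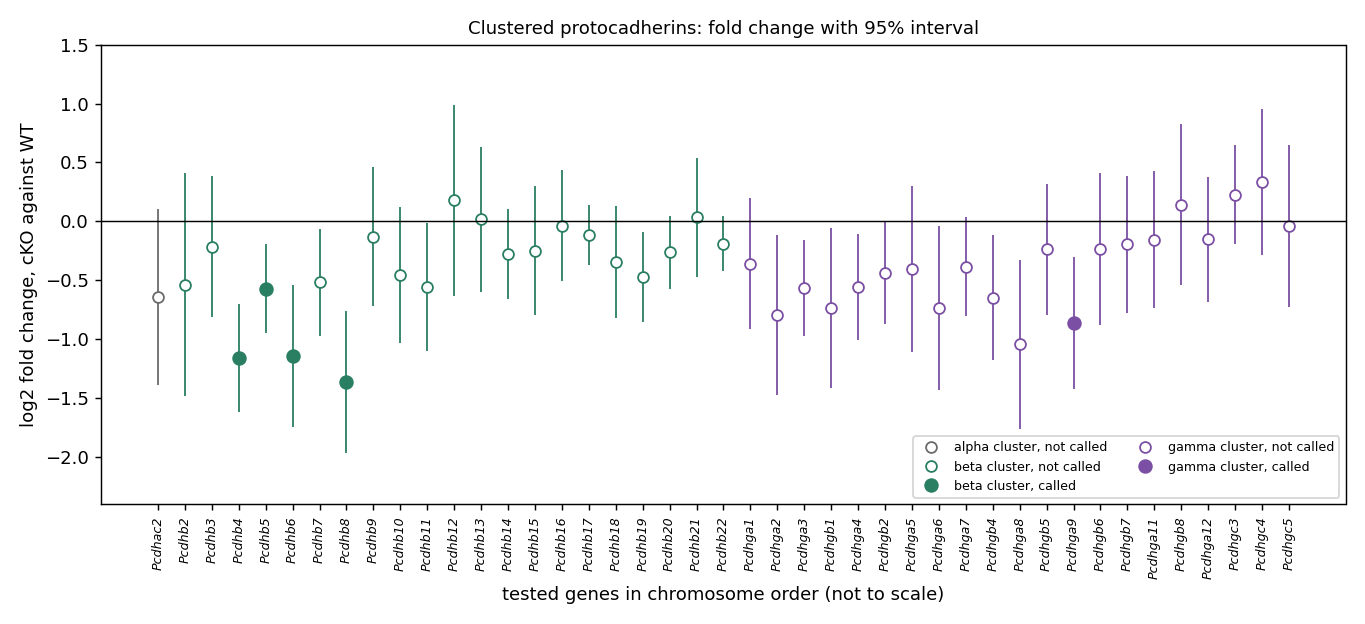
Log2 fold change (cKO against WT) with its 95% interval for the 43 tested clustered protocadherins in chromosome order, with gaps not to scale; grey is the alpha, green the beta and purple the gamma cluster, and filled points are called. The called beta genes Pcdhb4, Pcdhb5, Pcdhb6 and Pcdhb8 stand near each other at -1.16, -0.57, -1.14 and -1.36, and the C-type genes at the gamma end lie near 0 or above.

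Genes that act with cadherins were read from 7 lists. Of 15 cytoplasmic catenins and linkers, 5 rose and 4 fell (median 0.29, against 0.04 over all genes). That is 33.3% higher and 26.7% lower, against 8.55% and 10.3% of all genes. Those that fell were Ctnnal1 (log2 fold change -1.90), an alpha-catenin-like protein, Arvcf (-1.34), a p120-catenin relative that binds the juxtamembrane tail, Ctnna3 (-1.26), the alpha-T-catenin, and Ctnna1 (-0.38), the alpha-E-catenin that links cadherins to actin. Those that rose were the plakophilin gene Pkp1 (1.87), the neural catenins Ctnnd2 (0.86) and Ctnna2 (0.85), the afadin gene Afdn (0.44) and the plakoglobin gene Jup (0.35). Neuron markers summed to 54.05 to 62.05 CPM in WT against 67.4 to 129 CPM in cKO, 3 of 8 rose (Tubb3 by 2.09 on the log2 scale) and 0 fell, and 1 of 4 keratinocyte markers rose (Krt1, 1.83), and their part in the values of Ctnnd2, Ctnna2 and Pkp1 was not tested. Ctnnb1, which encodes beta-catenin, read 568.9 ± 17.2 CPM in WT against 561.4 ± 36.5 CPM in cKO (SD, n = 3 each) and had -0.02 (adjusted p = 0.907). Ctnnd1, the p120-catenin gene, had -0.18 (adjusted p = 0.169). Calls of Ctnnal1 and Arvcf held in all 6 fits with a library removed, and the other 7 in 1 to 3 of them.

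Of 15 tested genes of the Fat, Dachsous, flamingo and other cadherin-repeat families, 3 rose and 5 fell. That is 53.3% called against 18.8% of all genes, with a median of -0.03 against 0.04. The flamingo cadherins of planar cell polarity fell most: Celsr2 had -2.41, Celsr3 -2.37 and Celsr1 -1.87. Celsr2 went from 104.8 ± 11.4 to 19.7 ± 4.90 CPM (SD, n = 3 each, adjusted p = 0.00104). Fat1 (-0.67) fell and Fat4 (0.60) rose, both very large atypical cadherins of tissue growth and polarity. The calsyntenin gene Clstn1 (-0.77) fell, and Clstn2 (1.27) and Cdhr4 (1.28) rose from low levels. The 3 Celsr calls and that of Fat1 held in all 6 fits with a library removed, and the other 4 in 2 or 3 of them. Of 10 desmosomal genes 2 were tested, Dsc2 (1.21) and Dsp (-0.06), and neither was called or had an unadjusted p below 0.05 (count 0), also with DESeq2 (0).

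Among 9 transcription factors known to repress Cdh1 or to take part in cadherin switching, 3 rose and 1 fell. That is 44.4% called against 18.8% of all genes, with a median of 0.47 against 0.04. Snai2 (Slug) rose from 9.72 ± 1.13 to 15.5 ± 2.05 CPM (SD, n = 3 each, log2 fold change 0.67, adjusted p = 0.0222), Twist1 had 0.68 and Zeb1 0.47. Tcf3 fell (-0.31). Zeb2 (-0.35, adjusted p = 0.112) and Snai1 (0.40, adjusted p = 0.238) were not called. These 4 calls held in 1 to 3 of the fits with a library removed. Fibroblasts also express Snai2, Twist1 and Zeb1, and 3 of 8 fibroblast markers rose beside them, a part that was not tested.

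Of 15 genes known to control the protocadherin clusters, 1 rose and 1 fell. That is 13.3% called against 18.8% of all genes, with a median of -0.04 against 0.04. The insulator protein gene Ctcf read 98.6 ± 0.402 CPM in WT against 92.02 ± 5.83 CPM in cKO (SD, n = 3 each) and had -0.10 (adjusted p = 0.404). The cohesin gene Rad21 had -0.04 (adjusted p = 0.789), and Smchd1, a silencer of the clusters, -0.07 (adjusted p = 0.533). Lrif1, a partner of Smchd1, fell (-0.83, adjusted p = 0.00719), a call held in all 6 fits with a library removed. The DNA methyltransferase gene Dnmt1 rose (0.36, adjusted p = 0.0428), a call held in 1 of them.

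Of 11 WAVE complex genes, 3 fell and 1 rose. That is 36.4% called against 18.8% of all genes, with a median of -0.08 against 0.04. Wasf1 (-1.26), Cyfip1 (-0.69) and Abi2 (-0.63) were called lower in every fit with a library removed. Nckap1l (0.67), a haematopoietic subunit, was called higher in 2 of these fits. Macrophage markers summed to 483.9 to 551.3 CPM in WT against 785.9 to 1047 CPM in cKO, and their part in the value of Nckap1l was not tested. Of 10 genes of cadherin shedding and trafficking, 2 fell and 0 rose (1 higher and 5 lower at an unadjusted p below 0.05, 0 and 3 with DESeq2). This share of calls in either direction was close to the 18.8% of all genes, with a median of -0.26 against 0.04. Adam10, the protease that sheds E-cadherin and N-cadherin, fell from 416 ± 11.3 to 191.6 ± 26.7 CPM (SD, n = 3 each, log2 fold change -1.12, adjusted p = 0.00211), a call held in all 6 of these fits. The gamma-secretase subunit gene Aph1b had -0.70 (adjusted p = 0.0367), held in 2.

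**Figure D5:**
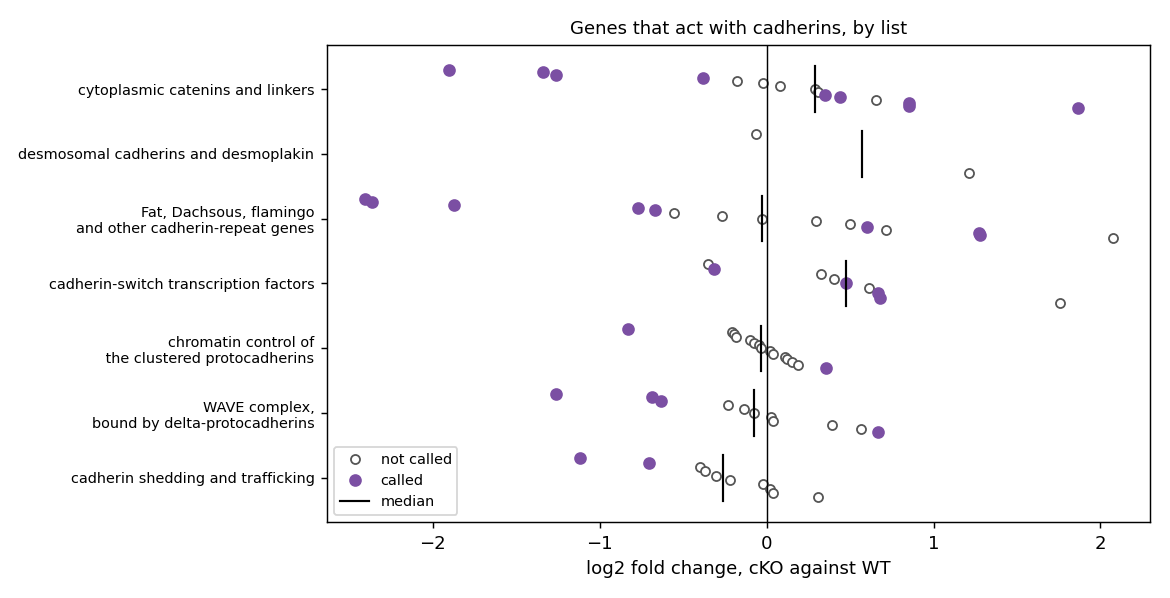
Log2 fold change (cKO against WT) of each tested gene of 7 lists of genes that act with cadherins; filled points are called genes, open points are not called, vertical bars are list medians and height within a list only separates points. The catenin list spreads from -1.90 for Ctnnal1 to 1.87 for Pkp1, and the Celsr genes form the left end of the cadherin-repeat list.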

How the data were processed

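The values are fragment counts per gene in 6 libraries, deposited by the authors as 1 table without normalization. Per the file headers, featureCounts 1.6.1 counted exons of the Ensembl GRCm38 release 95 models, unstranded, requiring both ends to align with a mapping quality of at least 20, and without the option to count fragments that overlap several genes. Subread 2.0 and DESeq2 1.3 stand in the submitters' processing notes with no role stated. Symbols came from GENCODE M21 (Ensembl release 96), which named 54809 of 54838 identifiers. Exonic lengths are another deposited column of the authors, and bases shared between genes were computed from the table's exon coordinates. The fit used edgeR 4.0.16 in R 4.3.3: filterByExpr (minimum count 10), TMM factors, robust dispersions and the 2-sided quasi-likelihood F test with 4 residual degrees of freedom, Benjamini-Hochberg adjustment over 18775 genes, and a call below 0.05. Standard errors and 95% intervals derive from the quasi-likelihood statistic. DESeq2 1.42.0 was an alternative, as were RLE factors, no low-count filter, a replicate block and leaving out each library. The code was tested on simulated data. Within groups, pairs of libraries differed by more than sampling noise allows (lowest chi-square over its degrees of freedom 8.26), so each counted as 1 replicate; nothing says that libraries came from separate animals, so p-values measure only the spread between these libraries. Members and lists were chosen with earlier results of these data known. Named genes are Actl6a, every tested Cdh and non-clustered Pcdh gene, the called clustered genes and the 3 highest of each cluster, and called list genes; others named, such as Pcdhb7 and Pcdhga8, were chosen after their values were seen.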

Additional observations from a re-analysis of the deposited data

How the results depend on the processing

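Many clustered genes had low counts: Pcdhb8, for example, had 28 to 129 counts per library. Its standard error on the log2 scale was 0.26, and that of the abundant Cdh19 was 0.25. The part of depth in the precision of the clustered genes was not tested. RLE factors kept every named gene's direction and side of the threshold. Clustered genes that fell numbered 5 on all libraries, 3 if the low-count filter was dropped, 3 under the replicate block, and 1 to 10 when each library was left out. Non-clustered genes that fell numbered 1, 0 under the replicate block, 3 with DESeq2 and 0 to 3 on leaving out a library, and those that rose 3, with 1 to 4. Classical genes that fell numbered 3, 4 with DESeq2 and 1 to 4 on leaving out a library (4 without cKO replicate 3), and those that rose 0, with 0 to 2. Over all genes, 1605 rose and 1929 fell, 744 and 1108 under the replicate block, and 449 to 3425 and 790 to 3398 on leaving out a library. The cause of these shifts was not tested. The replicate numbers did not pair the libraries: same-numbered deviations correlated at -0.223, -0.231 and -0.0797. Ctnnb1 (-0.057 to 0.032) and Dsp (-0.59 to 1.81), which are outside the named genes as defined above, changed sign on leaving out a library. Among the named genes so defined, log2 fold changes changed sign only for those listed next, none of them called on all 6 libraries. Their ranges over the 6 such fits were -0.057 (without cKO replicate 2) to 0.23 for Cdh4, which was also -0.015 without WT replicate 2, -0.038 (without cKO replicate 2) to 2.78 for Cdh15, -0.17 (without cKO replicate 3) to 0.31 for Cdh19, -0.43 to 0.027 (without cKO replicate 2) for Cdh6, -0.30 to 0.042 (without cKO replicate 2) for Cdh10 and -0.41 to 0.046 (without WT replicate 1) for Pcdhgb6.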
